A study of Mus musculus with 94 samples.

Results

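Among 46 single haematopoietic stem cells labelled Ski-KO, 17 had almost no transcript of Gnb1 and 29 kept it. The cells were chosen by their measured Gnb1 level alone. A cell was called Gnb1-low under 5 TPM (the share of a cell's transcripts that a gene takes, corrected for gene length and scaled to a fixed total) and Gnb1-retaining at 5 TPM or more. The 2 sets make up all Ski-KO cells among the 94 cells of the series, and the 48 cells labelled Ski-WT serve as a reference level. The cells came from C57BL/6 mice. They derived from fetal liver stem cells, had spent 6 months in transplanted hosts, and were sorted from bone marrow by the donor marker Cd45.2 and the SLAM gate (c-Kit, Sca-1 and Cd150 positive, negative for Cd48 and lineage markers). Ski-KO cells are labelled as lacking Ski, a co-repressor of TGF-beta signalling, and the labels do not say how the gene was removed. They carry 2 label prefixes, 051716 (27 cells) and 051816 (19 cells), whose meaning is not given, while all Ski-WT cells carry 061016. Genotype and prefix therefore cannot be told apart. No animal or culture is named for any cell. The Ski-KO cells were therefore treated as 1 sample, no test was made between the sets, and differences are described by how they recur in the 2 prefixes, which share no cells.

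The product of Gnb1 is a beta subunit of the G proteins that relay signals from cell surface receptors. A beta subunit pairs tightly with a gamma subunit, and the pair binds an alpha subunit until a receptor is activated. Alpha subunits and beta-gamma pairs then act on adenylyl cyclases, phospholipases and phosphoinositide 3-kinase, and RGS proteins end the signal. In blood stem cells, receptors of this class such as Cxcr4 guide homing to and retention in the marrow niche. Other beta subunits can take the place of Gnb1 in many pairs.

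Gnb1 chose the sets, so its values are a description. In the Gnb1-low cells of prefix 051716 the lowest, median and highest values were 0, 1.22 and 4.31 TPM, and in those of prefix 051816 they were 0.49, 0.945 and 2.74 TPM. Retaining cells had 78.8, 462 and 902 TPM in prefix 051716 and 18.2, 256 and 2269 TPM in prefix 051816. Only 1 low cell was listed at 0, and the other 16 had a trace of Gnb1. The 2 highest low cells were at 3.61 and 4.31 TPM and the 2 lowest retaining cells at 18.2 and 40.1 TPM, with no cell between. Ski-WT cells had 152, 1596 and 3308 TPM (lowest, median and highest), and 0 of 48 were under 5 TPM. Retention was partial, since 5 of the 29 retaining cells lay below the lowest Ski-WT cell and 1 of 29 reached the Ski-WT median.

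Ski, the targeted gene, was scarce in all cells. Its median was 0 TPM in the low, retaining and Ski-WT cells alike, and the highest values were 10.5, 228 and 336 TPM. Ski reached 5 TPM in 1 of 17 low cells (5.88%, exact 95% binomial interval 0.149% to 28.7%), 2 of 29 retaining cells (6.90%, interval 0.846% to 22.8%) and 6 of the 48 labelled Ski-WT. Intervals here and below are of the Clopper-Pearson kind and cover counting error only. At this level Ski neither checks the genotype label nor separates the sets.

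**Figure D1:**
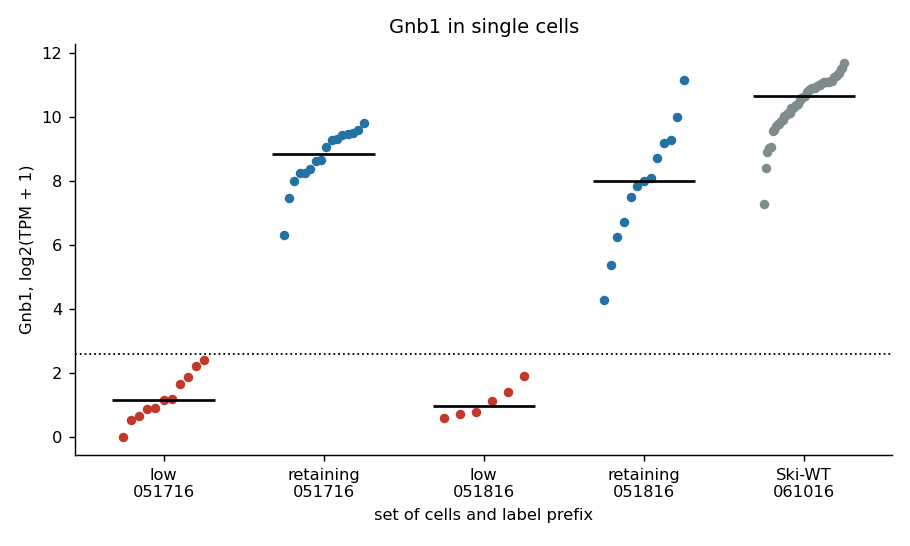
Gnb1 in each cell as log2(TPM + 1) on the vertical axis, by set of cells and label prefix on the horizontal axis. Points are cells, black lines are medians, and the dotted line marks 5 TPM. Low cells lie at or under 4.31 TPM, retaining cells start at 18.2 TPM, and all Ski-WT cells lie at 152 TPM or more.

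Low cells were found in both prefixes, 11 of 27 in 051716 (40.7%, interval 22.4% to 61.2%) and 6 of 19 in 051816 (31.6%, interval 12.6% to 56.6%). Sequencing depth is unknown from TPM values. Pooled over the prefixes, the number of genes above 0 was alike, with 2326, 3317 and 4707 (lowest, median and highest) in low cells and 2376, 3393 and 4930 in retaining cells. By prefix the medians were 3179 in low against 3308.5 in retaining cells for 051716, and 3864.5 against 3450 for 051816. Low cells thus had fewer detected genes in 051716 and more in 051816. The 10 highest genes took a median of 9.80% of the total in low and 9.95% in retaining cells, and ribosomal protein genes took 22.3% and 22.4%.

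Markers of the gate and of other cell types were examined next. Kit, the receptor behind c-Kit, was at 5 TPM or more in 15 of 17 low and 23 of 29 retaining cells, with medians of 139 and 35.2 TPM. Ly6a, the gene for Sca-1, went the other way, in 8 of 17 low and 19 of 29 retaining cells, with medians of 2.05 and 99.0 TPM. In Ski-WT cells the medians were 77.98 TPM for Kit and 87.4 TPM for Ly6a. Cd48, which the gate excludes, was at 5 TPM or more in none of either set (0 of 17 allows up to 19.5%, 0 of 29 up to 11.9%). Slamf1, the gene for the gate marker Cd150, was found at that level in 1 low and 3 retaining cells, although the gate selects for its protein. Of myeloid granule genes, Mpo was listed at 0 in all 94 cells of the series. Prtn3 was at 5 TPM or more in 10 of 17 low and 14 of 29 retaining cells, and Lyz2 in 10 and 18. The B cell gene Cd79a was above 0 in 1 retaining cell and the basophil gene Mcpt8 in none. The summed level of the 20 myeloid markers in the table ran from 15.96 to 4518 TPM with a median of 308 in low cells, and from 0 to 2949 TPM with a median of 459 in retaining cells. For the 17 megakaryocyte markers the medians were 1289 and 1041 TPM, and for the 16 erythroid markers 4162 and 3327 TPM, with ranges that overlapped. The erythroid sum rests largely on Car2, which alone had medians of 3430 and 2567 TPM. Only 6 of the 16 erythroid markers in low and 7 in retaining cells reached 5 TPM in any cell. The 12 macrophage and dendritic markers had medians of 459 and 218 TPM. For 7 B cell markers and 4 mast cell and basophil markers the median was 0 TPM in both sets, and for 9 T and NK cell markers it was 0.60 and 6.92 TPM. The part of these cell type markers in the differences below was not tested. Xist, the marker of an inactive X chromosome, was under 1 TPM in every cell, and at least 1 of 4 Y-linked genes was above 0 in 15 of 17 low and 28 of 29 retaining cells.

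Across all genes, few differences between the sets recurred in both prefixes. After a filter that asked for a value above 0 in 25% of the Ski-KO cells, 5247 genes other than Gnb1 were compared. Below, list members that passed this filter are called measured, and members that failed it are left out of the list counts. Of the 5247 genes, 190 (3.62%) were lower in low cells by 1 or more on the log2 scale in both prefixes, and 252 (4.8%) were higher. Another 431 genes (8.21%) differed by 1 or more in both prefixes with opposite signs, almost as many as the 442 (8.42%) with the same sign. The differences are means of log2(TPM + 1) over low cells minus means over retaining cells, and they are not fold changes of mean level. The signs matched for 2605 genes (49.6%). Across genes, the differences in prefix 051716 had a Pearson correlation of 0.0029 and a Spearman correlation of -0.01 with those in prefix 051816. Genes are not independent replicates, and the correlations describe these libraries only. The median difference over all genes was 0.05 pooled, -0.02 in prefix 051716 and 0.11 in prefix 051816. In prefix 051716 alone, 17.2% of genes were lower and 17.1% higher by 1 or more. In prefix 051816 alone, where low cells had more detected genes, 17.1% were lower and 25.1% higher. With detected genes per cell as a covariate in a linear fit, 189 genes were lower, 239 higher and 460 of opposite sign. With the log2 ratio of mean TPM + 1 in place of the mean of log2 values, the split turned to 588 lower and 306 higher genes, with 898 of opposite sign.

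**Figure D2:**
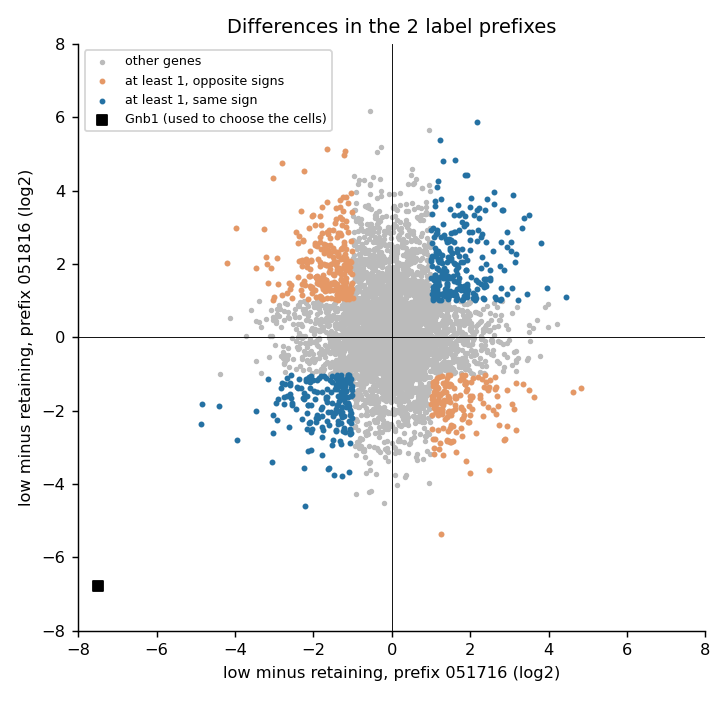
Low minus retaining differences in mean log2(TPM + 1) for prefix 051716 (horizontal axis) and prefix 051816 (vertical axis), 1 point per gene. Blue points mark the 442 genes at least 1 in size with the same sign, orange points the 431 with opposite signs, and the black square is Gnb1, which chose the sets. The cloud shows no slope, and Gnb1 stands alone at the lower left.

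Whole cells were compared in the same way. In prefix 051716 the median Spearman correlation across genes was 0.267 between pairs of low cells, 0.264 between pairs of retaining cells and 0.266 between a low and a retaining cell. In prefix 051816 the values were 0.284, 0.285 and 0.293. Pairs that crossed the sets were thus within 0.01 of pairs inside a set. The pairs share cells, so these values carry no error of their own.

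The genes below were named by a rule of size and of likeness in both prefixes. Their differences lie at the ends of 5247 genes, and each gene's values overlapped between the sets. In 7 of the 24 named genes the difference exceeded the standard deviation (SD) over cells, which ran from 2.26 to 4.04.

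Among the genes lower in low cells, Klhl9, an adaptor of a Cul3 ubiquitin ligase, had the most even pattern. Klhl9 had 0, 56.9 and 569 TPM (lowest, median and highest) in low cells, 71.5, 388 and 751 TPM in retaining cells and 0.18, 266 and 909 TPM in Ski-WT cells. It was at 5 TPM or more in 11 of 17 low cells (64.7%, interval 38.3% to 85.8%), in all 29 retaining cells and in 44 of the 48 labelled Ski-WT. The pooled difference was -3.51 (SD over cells 2.26), with -3.94 in prefix 051716 and -2.80 in prefix 051816. It was -2.10 with a Gnb1 limit of 1 TPM and -1.49 as the log2 ratio of mean TPM + 1.

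Cisd2, which encodes an iron-sulfur protein of the mitochondrial and reticulum membranes, had 0, 0 and 61.2 TPM in low cells and 0, 26.99 and 723 TPM in retaining cells. It reached 5 TPM in 2 low and 17 retaining cells, a difference of -3.15 (SD 2.92). Pold4, a subunit of DNA polymerase delta, was listed at 0 in all 17 low cells, which allows a share of up to 19.5%, and reached 5 TPM in 11 of 29 retaining cells. Most retaining cells also lacked Pold4, since their median was 0. Rnh1, the cytosolic ribonuclease inhibitor, reached 5 TPM in 2 low and 13 retaining cells (difference -2.93, SD 3.37).

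Others of this group are abundant genes. Paip2, an inhibitor of the poly(A)-binding protein, had medians of 435 TPM in low and 1211 TPM in retaining cells, with a difference of -2.56 (SD 3.02). Ndufa4, a respiratory chain subunit, had medians of 299 and 879 TPM and a difference of -2.68 (SD 3.52). Both genes were still at 5 TPM or more in most low cells, 13 and 12 of 17. As log2 ratios of mean TPM + 1 the differences were smaller, -1.08 for Paip2 and -0.87 for Ndufa4. Other members were Nucb1 (-2.68), a calcium-binding protein of the Golgi, and Crot (-2.73), a peroxisomal acyltransferase. They also included Rnf2 (-2.28), the catalytic subunit of Polycomb complex PRC1. Chordc1 (-2.04), an Hsp90 co-chaperone, and Golga7 (-2.17), a partner of a palmitoyltransferase, belonged to the group too. By the same ratio Nucb1 had -0.84 and Chordc1 -0.37. For Golga7 the direction turned when cells were called low under 1 TPM of Gnb1 (0.08).

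The genes higher in low cells were led by Maged1, a member of the MAGE family. Maged1 had 0, 31.5 and 1047 TPM (lowest, median and highest) in low cells and 0, 0 and 166 TPM in retaining cells, and the difference was 3.53 (SD 3.09). It was at 5 TPM or more in 9 of 17 low cells (52.9%, interval 27.8% to 77.0%), in 3 of 29 retaining cells (10.3%, interval 2.19% to 27.4%) and in 7 of the 48 labelled Ski-WT. Nsmaf, an adaptor of neutral sphingomyelinase, had a like pattern, in 9 low, 2 retaining and 5 Ski-WT cells (difference 3.45, SD 2.68). Cela1, which encodes an elastase, followed in 8, 3 and 6 cells (3.45, SD 3.21).

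Further genes of this group act in the endoplasmic reticulum. P4hb, a protein disulfide isomerase of the endoplasmic reticulum, had medians of 165 TPM in low, 0.77 TPM in retaining and 42.8 TPM in Ski-WT cells, a difference of 3.47 (SD 3.29). Dad1, a subunit of the oligosaccharyltransferase, had medians of 687, 60.2 and 299 TPM and a difference of 3.02 (SD 3.80). With a Gnb1 limit of 1 TPM the differences were 1.62 for P4hb and 0.54 for Dad1, and as the log2 ratio of mean TPM + 1 Dad1 had 1.16. For both genes the Ski-WT median lay between the medians of the 2 sets. Mrpl18 (3.02) and Mrpl46 (2.90, and 1.01 with the limit of 1 TPM) encode proteins of the mitochondrial ribosome and Pdhb (2.57) a subunit of pyruvate dehydrogenase. The others were Cetn2 (2.80), a centrin, Lyar (3.13), a nucleolar protein, Hn1l (3.08) and Itpripl1 (2.86).

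**Figure D3:**
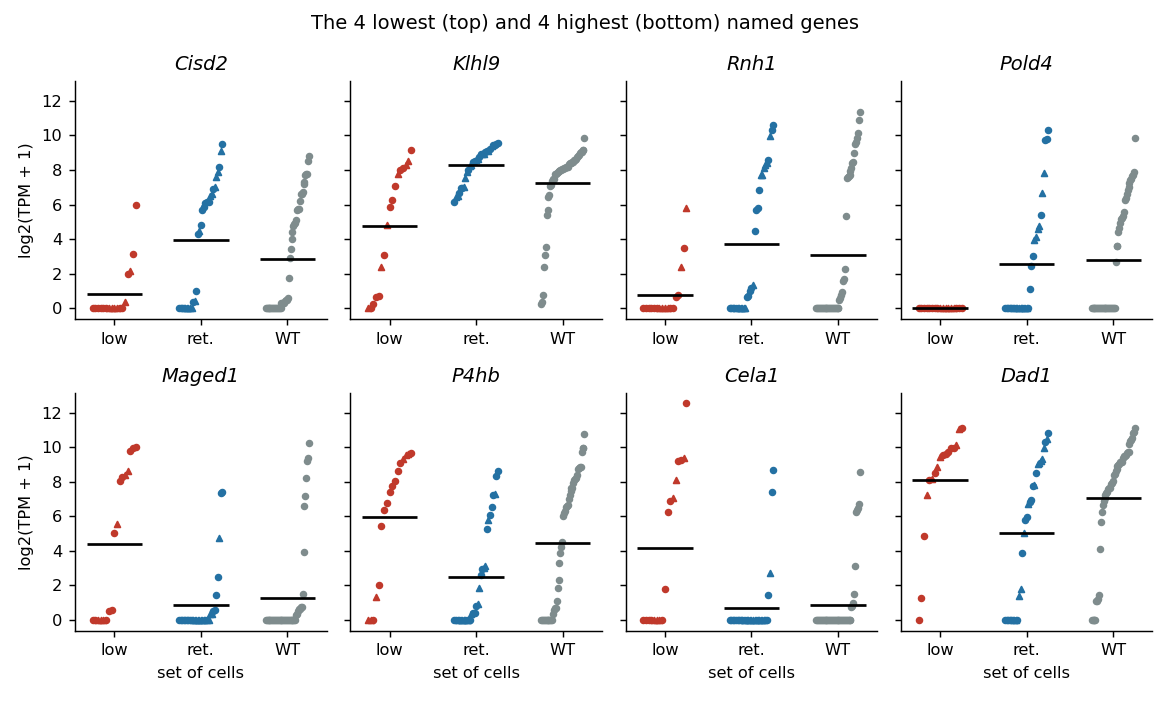
Expression of the 4 lowest (top) and 4 highest (bottom) named genes in single cells, as log2(TPM + 1) on the vertical axis, in low, retaining (ret.) and Ski-WT (WT) cells. Circles are prefixes 051716 and 061016, triangles are prefix 051816, and black lines are means. Klhl9 is at 71.5 TPM or more in every retaining cell, and Pold4 is listed at 0 in every low cell.

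Both sets were then placed beside the Ski-WT cells, which they share as a reference, so the values below are set side by side and not tested. The Ski-WT mean lay between the means of the 2 sets for 11 of the 12 lower and 10 of the 12 higher named genes, and for 35.9% of all 5247 genes. The named genes were chosen for a wide gap between the sets, which favours a mean in between, so nothing is read from these counts. For the lower genes the median difference from Ski-WT was -2.01 in low cells and 0.86 in retaining cells, and for the higher genes it was 1.52 and -1.65.

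Other G protein subunits were examined gene by gene. Of the other beta subunits, Gnb2 was the only one above 0 in 25% of the Ski-KO cells. Gnb2 had 0, 0.43 and 796 TPM in low cells and 0, 0.62 and 633 TPM in retaining cells. It reached 5 TPM in 6 of 17 low cells (35.3%, interval 14.2% to 61.7%) and 8 of 29 retaining cells (27.6%, interval 12.7% to 47.2%). The difference was 1.24 in prefix 051716 and -0.78 in prefix 051816, so no direction recurred. Gnb4 reached 5 TPM in 2 low and 6 retaining cells and Gnb5 in 2 and 0. The mean levels in low cells were 106 TPM for Gnb2, 24.9 TPM for Gnb4 and 9.19 TPM for Gnb5. The mean of Gnb1 was 478 TPM in retaining and 1599 TPM in Ski-WT cells. Whether other beta subunits make up for Gnb1 was not tested. The mean of Gnb2 was 38.9 TPM in retaining and 19.7 TPM in Ski-WT cells, and that of Gnb4 42.6 and 10.5 TPM.

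Of 5 measured gamma subunits, the partners of Gnb1, 1 was higher by 1 in both prefixes and 0 were lower, beside 4.8% and 3.62% of all genes. Gng5, the most abundant, had 0, 919 and 3235 TPM in low cells, 0, 470 and 2762 TPM in retaining cells and 1.76, 523 and 1906 TPM in Ski-WT cells. Its difference was -0.88 in prefix 051716 and 2.40 in prefix 051816. Gng12 was higher in low cells by 1.01, with 1.05 and 1.07 in the prefixes, and reached 5 TPM in 6 of 17 low and 6 of 29 retaining cells. Gng10 had -2.07, with -0.66 and -3.71, and was at 5 TPM or more in 7 low and 16 retaining cells. Gng2 (1.23) had 0.60 and 2.08, and Gng11 (-1.08) had -2.004 and 0.24.

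Of 7 measured alpha subunits, 1 was higher by the rule of 1 in both prefixes and 0 were lower, beside the same shares of all genes. Gna13, which acts on guanine nucleotide exchange factors, had a difference of 1.56 (1.40 and 1.49). It reached 5 TPM in 8 low, 7 retaining and 11 Ski-WT cells. Gnas, the stimulatory subunit, had medians of 37.2 and 68.3 TPM and a difference of -0.68. The inhibitory subunits Gnai2 (0.28) and Gnai3 (0.90) and the phospholipase-coupled Gnaq (0.79) and Gna15 (-0.77) had differences under 1. Gnal, a relative of Gnas, had -0.91.

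**Figure D4:**
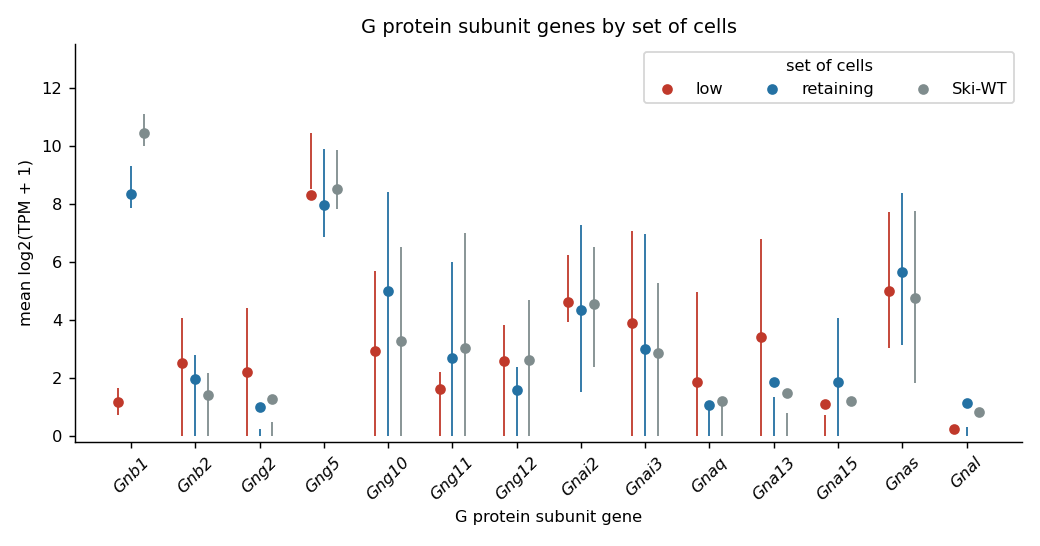
Mean log2(TPM + 1) on the vertical axis of the G protein subunit genes that passed the filter (horizontal axis), in low, retaining and Ski-WT cells. Points are means over cells and bars run from the lower to the upper quartile of cells. Gnb1 was used to choose the sets, and for all other genes shown the bars of the low and retaining cells overlap.

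Genes that fold, regulate and carry the signal of these subunits came next, from lists of their known members. Of 12 measured genes for the folding of G protein subunits, 3 were lower and 1 higher by 1 in both prefixes, beside 3.62% and 4.8% of all genes. Another 1 differed by that size with opposite signs, beside 8.21% of all genes. Pdcl, the co-chaperone with which the chaperonin CCT assembles beta-gamma pairs, differed by -1.16 (-1.18 and -1.20) and was at 5 TPM or more in 1 low, 6 retaining and 16 Ski-WT cells. Ric8, a chaperone of alpha subunits, had -1.43 (-1.41 and -1.27), and Cct2, a subunit of CCT, had -0.98 (-1.10 and -1.02). Pdcl3, a relative of Pdcl, had 1.999 (2.40 and 1.998) and was at 5 TPM or more in 7 low, 5 retaining and 20 Ski-WT cells. The other CCT subunits differed in direction, from -1.45 for Cct8 to 0.75 for Cct3, and the list median was -0.35.

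None of 5 measured RGS and GPSM genes, 7 effectors, 5 receptor kinases and arrestins or 12 G protein-coupled receptors passed the rule in either direction. Over all genes 3.62% were lower and 4.8% higher, so nothing is read from a count of 0 in lists this short. With opposite signs, 1 RGS gene and 1 receptor differed by 1 or more in both prefixes, beside 8.21% of all genes. Gpr56, an adhesion receptor, was at 5 TPM or more in every cell of both sets (difference -0.17), and Cxcr4 had 0.40. Rgs1 and Rgs18, abundant RGS genes of these cells, had 0.08 and -0.35. Of 7 measured genes of protein kinase A signalling, 2 were lower, beside 3.62% of all genes, and 1 had opposite signs. The list median was 0.21. Prkaca, a catalytic subunit, had -1.08 (-1.04 and -1.14), and Creb1, a transcription factor that the kinase activates, had -1.74 (-1.26 and -2.55). Creb1 was at 5 TPM or more in 2 low, 12 retaining and 9 Ski-WT cells.

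Gnb1 and Ski lie 6 protein-coding genes apart in the RefSeq order of GRCm38, so the genes on either side of Gnb1 were examined. Of the 20 protein-coding genes on each side, 13 passed the filter. By the rule 1 of these was lower and 0 were higher, beside 3.62% and 4.8% of all genes. With opposite signs, 2 differed by 1 or more in both prefixes, beside 8.21% of all genes. The lower gene was Aurkaip1, a mitochondrial ribosome protein 15 genes from Gnb1, with a difference of -3.03 (-3.48 and -2.01). Aurkaip1 was at 5 TPM or more in 5 low, 20 retaining and 23 Ski-WT cells. Values of nearer genes were smaller or uneven. Slc35e2 and Cdk11b, 2 and 3 genes away, had -0.24 and -0.18, and Ssu72, 7 genes away, had 1.02 with opposite signs in the prefixes. Rer1, 8 genes away, had 1.18 in prefix 051716 and -2.54 in prefix 051816. Mrpl20, 13 genes away, had -2.79 and 4.75. The median over the 13 genes was -0.14.

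Genes of the pathway that Ski represses were examined as well. Of 14 measured Ski partners, 1 was higher and 0 were lower, beside 4.8% and 3.62% of all genes. The higher gene was Hdac3, a histone deacetylase, with 2.26 (2.79 and 1.03). None of 7 measured receptors and Smads of TGF-beta signalling or of 5 genes induced by it passed the rule, and nothing is read from this in lists so short. Skil, a relative of Ski that the pathway induces, had -0.53, with -1.07 in prefix 051716 and 0.75 in prefix 051816, and Junb had -1.53, with -2.39 and -0.31.

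Of 28 measured stem cell identity genes, 1 was lower and 1 higher, beside 3.62% and 4.8% of all genes. Another 1 differed by 1 or more with opposite signs in the prefixes, beside 8.21% of all genes. Hoxa9, a homeobox factor of stem cells, was at 5 TPM or more in 8 of 17 low, 5 of 29 retaining and 23 of 48 Ski-WT cells, with a difference of 2.03 (1.92 and 2.10). Cd81, a tetraspanin of stem cells, had -1.65 (-1.08 and -2.62). Of T and NK cell markers only Nkg7 passed the filter, with -1.59 (-1.21 and -2.59). Of 9 measured megakaryocyte markers, 2 were lower in both prefixes, Cd9 (-1.43) and Plek (-1.33), while Pf4 (-0.12) and Itga2b (0.09) had opposite signs in the prefixes. Csf3r (-1.51), the receptor for G-CSF, was the only myeloid marker of 4 to pass the rule. The gate marker Ly6a, which encodes Sca-1, had -0.68 and -3.26 in the prefixes, and Kit had 0.36 and 3.45.

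Cell cycle genes were uneven. Of 12 measured mitosis genes 0 passed, and Mki67, a marker of cycling cells, had 2.54 in prefix 051716 and -0.46 in prefix 051816. Of 12 cyclins, kinases and inhibitors 3 were higher and 0 lower, beside 4.8% and 3.62% of all genes, and the list median was 0.09. Cdkn1b, an inhibitor that holds stem cells in rest, was at 5 TPM or more in 15 of 17 low, 17 of 29 retaining and 31 of 48 Ski-WT cells, with a difference of 1.69 (1.86 and 1.41). Cdk4, a kinase of the G1 phase, had 1.56 and Myc, a growth regulator, 1.07. Of 21 replication genes, Rfc2 (2.30) and Mcm5 (1.22) were higher and 0 lower, beside the same shares of all genes. Of 14 p53 and apoptosis genes, Xiap (2.89), an inhibitor of caspases, Trp53 (1.30) and Casp8 (1.05) were higher, and Mdm2 (-2.16), which degrades p53, was lower. These counts too stand beside 4.8% higher and 3.62% lower of all genes, and no link between these genes was tested. With opposite signs, 1 mitosis, 2 replication and 2 p53 and apoptosis genes differed by 1 or more in both prefixes, beside 8.21% of all genes.

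In larger gene groups the counts are read beside 3.62% of all genes lower and 4.8% higher, and the medians beside 0.05 over all genes. Of 76 oxidative phosphorylation genes 5 were lower and 4 higher, with a median of -0.16. Ndufa4, Uqcrfs1 (-2.05), Atp5k (-1.43) and Atp5c1 (-1.41) stood at the low end, and Ndufb11 (2.50), Ndufa5 (1.99), Ndufa6 (1.97) and Cycs (1.25) at the other. Of 77 ribosomal protein genes only Rps27 passed (-2.32), and the median was -0.05. Of 39 proteasome genes 5 were higher and 0 lower, with a median of 0.24 (0.39 and 0.22 in the prefixes). The group was led by Psma5 (2.74), whose Ski-WT mean of log2 values, 6.01, lay between 7.39 in low and 4.65 in retaining cells. Of 21 redox genes 3 were higher, Gpx4 (1.40), Prdx3 (1.39) and Prdx4 (1.06), and 0 lower, with a median of 0.42 (0.45 and 0.60). Of 14 genes of the unfolded protein response, Pdia6 (1.97) and Calr (1.36) were higher and 0 lower, with a median of 0.48 (0.57 and 0.76). Of 55 splicing factor genes 4 were higher, Prpf4 (2.12), Srsf5 (1.76), Tra2b (1.35) and Snrpg (1.13), and 0 lower, with a median of 0.27 (0.09 and 0.64). Of 16 class I antigen presentation genes and 18 interferon response genes 0 passed in either direction. Differences of 1 or more with opposite signs in the prefixes were found in 8 oxidative phosphorylation, 5 proteasome, 4 splicing factor and 2 unfolded protein response genes. They were also found in 2 interferon response genes, 1 class I gene and 0 ribosomal protein or redox genes, beside 8.21% of all genes. For proteasome, splicing factor and unfolded protein response genes the opposite count equalled the count of higher genes.

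**Figure D5:**
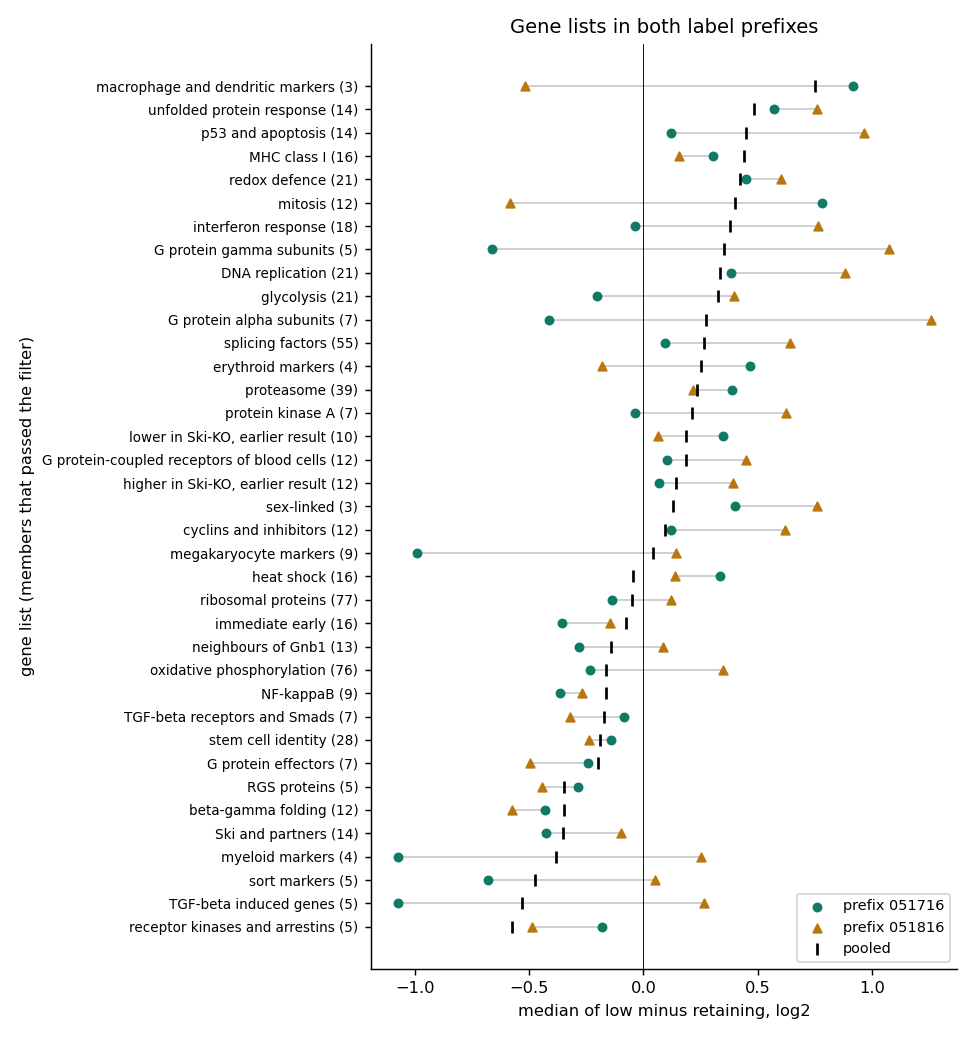
Median low minus retaining difference (horizontal axis, log2) of the 37 gene lists with at least 3 measured members (vertical axis, number of members in brackets), in prefix 051716 (circles), prefix 051816 (triangles) and pooled (bars). No list reached 1 in size in both prefixes, and the median had the same sign in both for 22 of the 37 lists.

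Genes that an earlier comparison of all Ski-KO with Ski-WT cells had named were looked up in the sets, with Ski-WT values beside them. Prpf31, a splicing factor gene, was at 5 TPM or more in 2 of 17 low, 4 of 29 retaining and 24 of 48 Ski-WT cells, with 0.03 and -0.50 in the prefixes. Dtd1 (6, 10 and 32 cells), Cnot8 (3, 8 and 25 cells) and Atox1 (9, 14 and 38 cells) had opposite signs in the prefixes. Cd81 was at 5 TPM or more in 7, 19 and 44 cells and Atp6v0b, a proton pump subunit with a difference of -1.56, in 3, 10 and 29 cells. Mrpl18, higher in low cells, was at that level in 10 of 17 low, 9 of 29 retaining and 37 of 48 Ski-WT cells. Counts of genes that passed the rule are read beside 3.62% of all genes lower and 4.8% higher in low cells. Of 10 measured genes named as lower in Ski-KO cells, 2 were lower and 1 was higher in low than in retaining cells. Of 12 named as higher in Ski-KO cells, Stx4a (2.88), Hibch (1.88) and Mrps18c (1.68) were higher in low cells and Tmem59 (-1.77) was lower. The others had no difference of 1 with the same sign in both prefixes, among them Rnf187 with -3.34 in prefix 051716 and 0.29 in prefix 051816. With opposite signs, 1 gene named as lower and 2 named as higher in Ski-KO cells differed by 1 or more, beside 8.21% of all genes.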

How the data were processed

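Cells were separated with the Fluidigm C1 system, copied with SMARTer chemistry and sequenced as Nextera XT libraries, per the labels' protocols. The submitters' processing notes list Bowtie2, RSEM and mm9, and their versions and roles are not given in the sources used here. The authors deposited log2(TPM + 1) values, a unit inferred from the numbers, since each back-transformed cell sums to between 997625 and 999995 TPM. The table holds 13244 genes. TPM keeps no read depth, so no interval from reads was made. Of the Ski-KO values above 0, 36.0% were under 5 TPM.

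Cells were grouped by title, and the Ski-KO cells were split at 5 TPM of Gnb1. The split, the members, the gene lists and the naming rule were chosen with earlier results of these data known. Cells are not replicates, so differences of mean log2(TPM + 1), with a pseudocount of 1, are given without a test. The filter required a value above 0 in at least 25% of the 46 Ski-KO cells, whichever set held them. A gene counted as lower or higher at a difference of 1 or more in both prefixes. Named genes, outside Gnb1 and the sex-linked list, had the same sign in both prefixes and a smaller difference above the gap between prefixes. Of 1064 such genes, the 12 lowest and 12 highest by the smaller difference were named, and list members by the same measure. Some genes that the rule selects are not reported here. Members that passed the count of 1 in both prefixes, scarce beta subunits, gate and cell type markers, and members with opposite signs are also named, a choice made with their values in view. Doublets were not called, and all cells were kept. The neighbours of Gnb1 follow RefSeq gene order of GRCm38, matched by symbol or synonym, and no coordinates are used since the build differs. The calculation was checked on simulated shifts. Alternatives covered the Gnb1 limit, pseudocount, filter, detected genes, scaling and mean. Tables were computed with pandas 2.3.3 and numpy 2.4.6 under Python 3.11.15. Intervals came from scipy 1.17.1, and plots from matplotlib 3.10.9.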

Additional observations from a re-analysis of the deposited data

How the results depend on the processing

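Over 13 alternative settings the correlation of the differences between prefixes stayed between -0.03 and 0.03. The count of genes lower in low cells was 311 with a Gnb1 limit of 1 TPM, 342 with a pseudocount of 0.1 TPM, 49 with a pseudocount of 10 TPM, 95 with a filter of 50% of cells and 588 with the log2 ratio of mean TPM + 1. The count of higher genes was 452, 69 and 138 with the pseudocounts of 0.1 and 10 TPM and the filter of 50%. The count with opposite signs was 741 with the limit of 1 TPM, 811 and 112 with these pseudocounts, 215 with the filter and 898 with the ratio. The cause was not tested, except that the stricter filter keeps fewer genes, 2404. The median difference over all genes was -0.068 with the ratio. Restricting the retaining set to the 24 cells within the Ski-WT range of Gnb1, chosen after the data were seen, gave 203 lower, 286 higher and 487 opposite genes. Of 352 values of the named genes under alternatives, 351 kept their sign, and the exception was Golga7 with the limit of 1 TPM (0.076). Part of this count was fixed in advance. The values from each prefix alone had to match in sign by the naming rule, and the alternative filters left each value they kept unchanged. The other settings reused the cells from which the genes were named, so the count is no independent check. Sizes changed in several settings. Of the 24 named differences, 10 shrank by more than 1.5 times with the limit of 1 TPM, 17 with the pseudocount of 10 TPM and 9 with the ratio, with which 5 others grew by as much. Of 553 list medians, 121 moved by more than the SD over the 2 prefixes. That SD is wide where the prefixes disagree, so the other medians were not all stable and some changed sign. The gamma subunit median went from 0.35 to -0.86 with the filter of 50%, and the alpha subunit median from 0.28 to -0.75 with the ratio. The median number of detected genes was lower by 76 in low cells, and its sign turned in prefix 051816. No paired analysis was possible because the cell numbers of Ski-KO and Ski-WT only name cells, and both sets come from the same genotype. Unknown read depth and values under 5 TPM limit what the absence of a transcript in a cell can show.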
